A study of Mus musculus with 6 samples.

Results

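In all, 10 genes of the glucocorticoid response were examined: the receptor gene Nr3c1 and 9 genes that glucocorticoids are known to induce in many tissues, out of 17152 genes with enough reads to be tested. The 9 were Fkbp5, Zbtb16, Klf15, Map3k6, Tsc22d3, Per1, Sgk1, Klf9 and Cdkn1c, and all 10 passed the filter on low reads. Of these, 6 were selected by gene symbol and not for their level, though with earlier results of these data known. Fkbp5, Zbtb16, Klf15 and Map3k6 were selected on these same libraries for a higher level in Pax7KR. The difference of these 4 between genotypes is therefore a description and carries no test. The libraries came from satellite cells, which are the resident muscle stem cells and were sorted from uninjured hindlimb muscle of C57BL/6J mice and used without culture. The 3 Pax7WT libraries were from mice with unaltered PAX7, the transcription factor that marks these cells, and the 3 Pax7KR libraries from mice whose genome was edited so that PAX7 carries arginine in place of a lysine that is acetylated. The mice were 6 to 8 weeks old, with wild-type littermates as controls. The sort kept cells positive for α7-integrin and CD34 and removed cells with CD31, CD11b, SCA-1 or CD45, and the labels list no glucocorticoid or other treatment for either genotype.

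Glucocorticoids are steroid hormones of the adrenal gland that enter cells and bind the glucocorticoid receptor, which waits in the cytoplasm in a complex with HSP90 and immunophilin partners. The receptor with its hormone moves to the nucleus, binds DNA as a dimer at palindromes of a short half-site, and raises or lowers transcription of nearby genes. In skeletal muscle the hormone is known for catabolic effects and for setting daily rhythms of metabolism, and several of the genes below are widely used as readouts of receptor activity.

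The sequences of 5 promoter windows are printed because the members differ in where they start and in whether the receptor's motif stands near that start. Each window holds 300 bases, 250 before and 50 after a transcription start, from RefSeq on GRCm38.p6, and is written in the direction of transcription. Of the 10 members, 7 had windows, 15 in all. The promoters of Nr3c1, Zbtb16 and Cdkn1c were not analysed here. Capitals mark the receptor half-site AGAACA, searched on both strands, and the relaxed palindrome GNACANNNTGTNC. The Sgk1-202 and Sgk1-201 windows lie on the plus strand at chr10:21993640-21993939 and chr10:21994416-21994715. That of Tsc22d3 lies on the minus strand at chrX:140600473-140600772, at the far upstream start of the long form. The start of its major short form, Tsc22d3-201, lies in none of the windows, and the promoter there was not analysed here. Map3k6 is at chr4:133240568-133240867 on the plus strand and Fkbp5 at chr17:28486100-28486399 on the minus strand.
Sgk1-202: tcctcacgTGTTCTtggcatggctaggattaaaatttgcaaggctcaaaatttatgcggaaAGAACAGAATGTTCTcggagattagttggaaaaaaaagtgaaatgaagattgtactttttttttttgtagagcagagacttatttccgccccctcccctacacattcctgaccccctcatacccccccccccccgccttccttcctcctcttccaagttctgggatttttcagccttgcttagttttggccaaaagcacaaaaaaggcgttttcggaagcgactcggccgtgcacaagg
Sgk1-201: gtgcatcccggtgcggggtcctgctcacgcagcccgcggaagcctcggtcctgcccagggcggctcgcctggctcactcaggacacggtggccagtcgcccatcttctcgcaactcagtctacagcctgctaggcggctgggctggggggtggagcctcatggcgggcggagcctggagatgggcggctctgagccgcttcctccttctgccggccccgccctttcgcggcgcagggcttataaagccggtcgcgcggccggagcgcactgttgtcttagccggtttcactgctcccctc
Tsc22d3 long form: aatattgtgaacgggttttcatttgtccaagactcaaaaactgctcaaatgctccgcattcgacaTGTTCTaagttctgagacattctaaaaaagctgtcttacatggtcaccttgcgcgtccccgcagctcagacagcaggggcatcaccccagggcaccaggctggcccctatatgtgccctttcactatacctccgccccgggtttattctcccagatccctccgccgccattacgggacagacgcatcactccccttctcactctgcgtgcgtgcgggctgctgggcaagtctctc
Map3k6: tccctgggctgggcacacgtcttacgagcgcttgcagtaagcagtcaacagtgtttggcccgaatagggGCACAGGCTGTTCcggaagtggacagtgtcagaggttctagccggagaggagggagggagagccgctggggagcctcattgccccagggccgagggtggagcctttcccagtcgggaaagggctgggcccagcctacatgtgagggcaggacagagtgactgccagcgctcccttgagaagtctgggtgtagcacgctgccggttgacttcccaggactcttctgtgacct
Fkbp5: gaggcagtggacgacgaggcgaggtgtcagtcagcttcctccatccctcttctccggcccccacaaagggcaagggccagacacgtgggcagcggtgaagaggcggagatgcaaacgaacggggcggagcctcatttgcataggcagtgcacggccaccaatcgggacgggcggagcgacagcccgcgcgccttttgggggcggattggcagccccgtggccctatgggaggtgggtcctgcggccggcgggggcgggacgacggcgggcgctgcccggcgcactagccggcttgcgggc

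The window of Sgk1-202 held the full receptor palindrome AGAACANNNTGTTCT, whose first base lay 189 bases before the start, and a further half-site 242 bases before it. This 15-letter palindrome stood in 1 of the 15 member windows and in 3 of all 32851 windows (0.00913%). The relaxed palindrome was in 2 of the 15, that of Sgk1-202 and that of Map3k6, where it began 181 bases before the start, against 0.475% of all windows. Like the full palindrome, it is too rare for a count in 15 windows to be read. Several of these windows belong to Sgk1, and Map3k6 was selected on these libraries. The half-site alone is common, with 19% of all windows and 4 of the 15. Those 4 belonged to Sgk1 (3 windows) and to the long form of Tsc22d3, where it lay 185 bases before the RefSeq start at chrX:140600522. The transcript Tsc22d3-203, whose reads are given below, starts further upstream in that window, at chrX:140600659. None of these letters stood in the windows of Fkbp5, Klf15, Klf9 or Per1. The homeodomain palindromes TAATNNATTA and TAATNNNATTA, of the kind that PAX7 can bind, were in 0 of the 15 windows, against 0.39% and 0.487% of all windows. Both are too rare for a count in 15 windows to be read. The core TAAT was in 8 of the 15 windows and in 58% of all windows. A match describes these letters in these windows and does not show that a factor binds there. The absence of a match covers only the 300 bases of a window, and sequence further from the start was not searched.

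The libraries held 17822367 to 27908054 estimated reads each, from 15 ng of RNA per sample. Satellite cell markers were expressed in every library, with Pax7 between 1410 and 1666 CPM, the normalised read count relative to the library size. Immune markers summed to 10.4 to 14.5 CPM per library and myofibre markers to 94.5 to 129 CPM. Larger sums were those of fibro-adipogenic markers, 3063 to 3248 CPM, and of smooth muscle and pericyte markers, 2827 to 3440 CPM. These sums do not show which cells the reads came from. Of 11 smooth muscle and pericyte markers, 11 were lower in Pax7KR, at a median log2 fold change of −0.10, but 4 were higher and 7 lower without replicate 2 of Pax7WT. Schwann and glial markers summed to 361 to 399 CPM in Pax7WT and 334 to 340 CPM in Pax7KR. Of these 9 markers, 3 were higher and 6 lower in Pax7KR, but 5 were higher and 4 lower without replicate 3 of Pax7WT. The part of these cells in the members' levels was not tested. Of the libraries, 2 stood apart. Replicate 2 of Pax7KR had a summed level of 4 Y-linked genes of 131 CPM, against 299 to 355 CPM in the other 5 libraries. Xist, the other sex marker, was at 0.88 CPM in that library and 0.44 to 2.29 CPM in the other 5. The cause was not tested. Replicate 2 of Pax7WT had the lowest summed level of immediate early genes, 29549 CPM against 38036 to 49408 CPM. In bulk libraries, fewer cells of a type and less RNA per cell cannot be told apart. The methods of the study refer to biological samples. The labels number the replicates and do not tie each library to 1 mouse, so p-values measure the spread between these samples.

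Levels were compared between genes only per length of transcript, in TPM. Sgk1 (mean of 281 TPM over the 6 libraries) and Tsc22d3 (268 TPM) were at the top, followed by Klf9 (182 TPM), Per1 (160 TPM) and the receptor gene Nr3c1 (81.7 TPM). Below these came Fkbp5 (46.8 TPM), Klf15 (43.5 TPM), Cdkn1c (32.8 TPM), Zbtb16 (26.1 TPM) and Map3k6 (25.7 TPM). Neighbours in this order overlapped in their ranges over the 6 libraries, except Per1 and Nr3c1. The 4 genes selected for their higher level in Pax7KR were all among the 5 members of lowest level by this measure.

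Nr3c1, which encodes the glucocorticoid receptor itself, was at 323, 264 and 288 CPM in the Pax7WT libraries and 259, 252 and 265 CPM in the Pax7KR libraries. The Pax7KR libraries lay at the low end, but replicate 3 of Pax7KR overlapped replicate 2 of Pax7WT. The log2 fold change of Pax7KR over Pax7WT (log2FC) was −0.17 (SE 0.07), with an unadjusted p of 0.035 and an adjusted p of 0.99 over all genes in edgeR's quasi-likelihood test. Across all genes 4.68% had an unadjusted p under 0.05, and 0% passed an adjusted p of 0.1. Without replicate 1 of Pax7WT, which held the highest level, the value was −0.09.

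**Figure D1:**
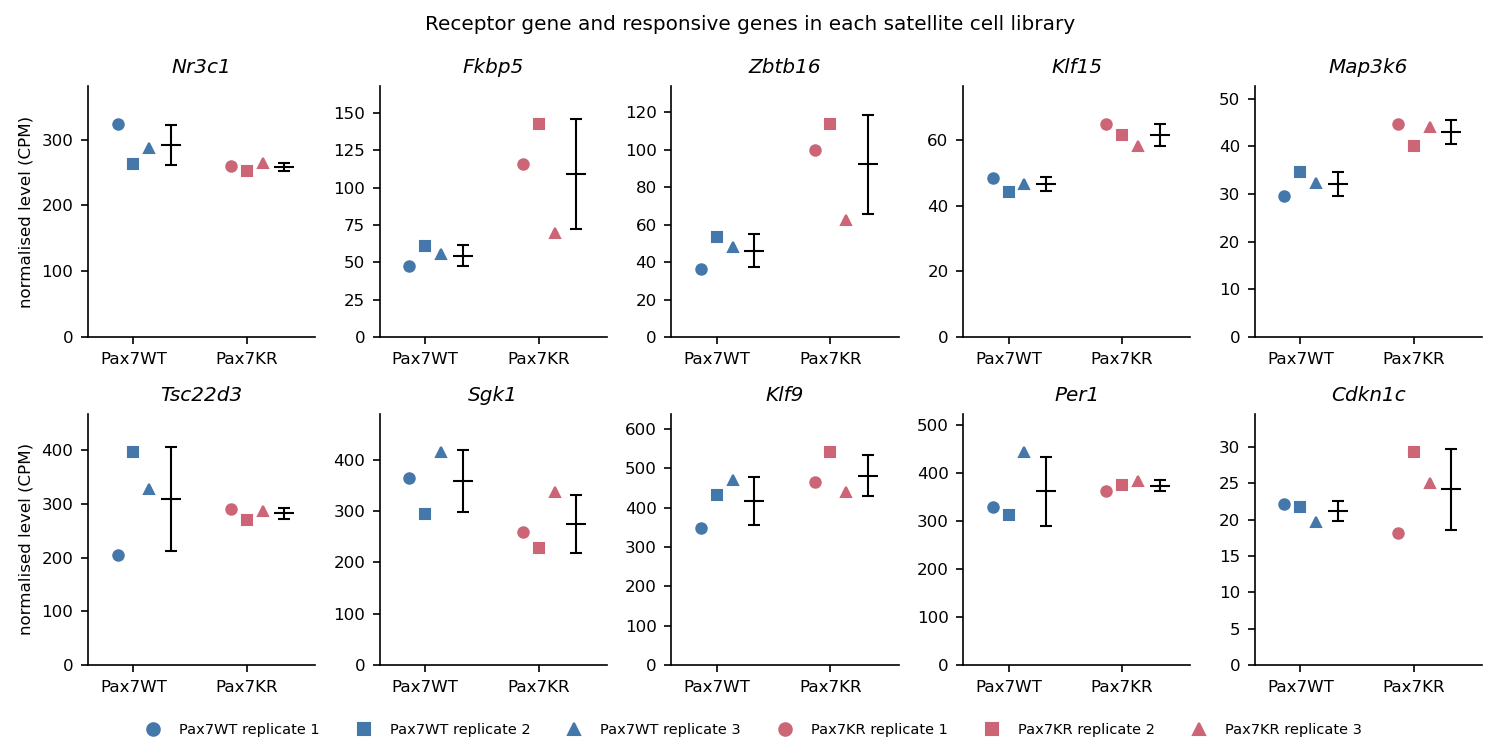
Normalised level (CPM, linear axes from 0) of the 10 genes in each library, with blue for Pax7WT, red for Pax7KR and the symbol shape giving the replicate number. Black bars are the mean and SD of 3 libraries, and the groups stand apart for Fkbp5, Zbtb16, Klf15 and Map3k6, the 4 genes selected for that, and overlap for the other 6.

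Fkbp5 encodes FKBP51, an immunophilin of the HSP90 complex that lowers the affinity of the receptor for its hormone and is itself induced by it. It was at 47.3, 60.8 and 55.6 CPM in Pax7WT and at 116, 142 and 69.6 CPM in Pax7KR. Replicates 1 and 2 of Pax7KR were far above Pax7WT and replicate 3 only slightly above it. The means were 54.6 ± 6.81 and 109 ± 36.8 CPM (SD, n = 3), a 2.00-fold difference. The log2FC of 1.01 became 0.77 without replicate 2 of Pax7KR and 1.25 without replicate 3.

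Zbtb16 encodes PLZF, a transcription repressor with a BTB domain and zinc fingers. Its levels were 36.6, 53.6 and 48.1 CPM in Pax7WT and 100.1, 114 and 62.8 CPM in Pax7KR, with means of 46.1 ± 8.68 and 92.1 ± 26.3 CPM (SD, n = 3). Its log2FC of 1.00 became 0.83 without replicate 2 of Pax7KR and 1.22 without replicate 3. Zbtb16 and Fkbp5 placed the 6 libraries in the same order, from replicates 1, 3 and 2 of Pax7WT to replicates 3, 1 and 2 of Pax7KR.

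Klf15, a Krüppel-like transcription factor of amino acid and lipid metabolism, and Map3k6, a kinase of the MAP kinase cascades, differed by less but with little spread. Klf15 was at 48.4, 44.2 and 46.7 CPM in Pax7WT and at 64.7, 61.5 and 58.2 CPM in Pax7KR. Its log2FC was 0.40, and lay between 0.37 and 0.44 when any 1 library was left out. Map3k6 was at 29.5, 34.7 and 32.3 CPM in Pax7WT and at 44.7, 40.2 and 44.2 CPM in Pax7KR. Its log2FC was 0.42, between 0.36 and 0.48 with any 1 library left out. For Map3k6, replicate 3 of Pax7KR was close to replicate 1, unlike for Fkbp5 and Zbtb16. Among all genes 5.14% had every Pax7KR library above every Pax7WT library and 5.19% had every one below. The 4 genes were chosen for their higher level, so nothing is read from their separation.

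Levels like those of Fkbp5 across libraries were sought among 9515 genes with a mean of at least 10 CPM, by the root mean square difference between centred log2(CPM + 1) profiles over the 6 libraries. Zbtb16 was the nearest, with a difference of 0.078, against a spread of 0.568 for Fkbp5 itself. Next came Vwf (0.213), Usp54 (0.228), Mmrn2 (0.232) and Plvap (0.239). Vwf encodes the von Willebrand factor of endothelial cells and platelets, Mmrn2 an endothelial matrix protein, and Plvap a component of endothelial diaphragms. Klf15 ranked 53, Map3k6 84 and Klf9 95 in likeness to Fkbp5, while Sgk1 ranked 9449. Fkbp5, Zbtb16, Klf15 and Map3k6 were all selected on these libraries for a higher level in Pax7KR, which in part sets their likeness, so these ranks are a description.

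The summed level of endothelial markers was also highest in replicates 1 and 2 of Pax7KR. With all 3 Pax7KR libraries, 0 of the 16 markers were above every Pax7WT library, against 5.14% of all genes. Of 16 markers, 15 were higher in Pax7KR by their log2FC, for a median of 0.40, and 0 passed an adjusted p of 0.1 in edgeR. Without replicate 2 of Pax7KR, 12 were higher and the median was 0.13. Replicate 3 was the lowest Pax7KR library for 15 of the 16. Tek, the most abundant of them, is left out of the sum that follows. The other 15 summed to 123, 159 and 221 CPM in Pax7WT and 229, 315 and 159 CPM in Pax7KR, so replicates 1 and 2 of Pax7KR were highest and replicate 3 lay within the range of Pax7WT. Among the defining markers, Pecam1, which encodes the CD31 used to exclude cells in the sort, was at 20.7, 22.0 and 42.2 CPM in Pax7WT and 34.5, 50.4 and 26.9 CPM in Pax7KR. No marker of the 16 was at 0 in every library. Replicate 3 of Pax7WT had an endothelial sum of 221 CPM and Fkbp5 at 55.6 CPM, and replicate 1 of Pax7KR had 229 CPM and 116 CPM. Single markers differed in both directions between these libraries. Pecam1 was lower in replicate 1 of Pax7KR than in replicate 3 of Pax7WT, and Vwf was higher (52.3 against 40.3 CPM). The part of endothelial RNA in the levels of Fkbp5 and Zbtb16 was not tested.

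**Figure D2:**
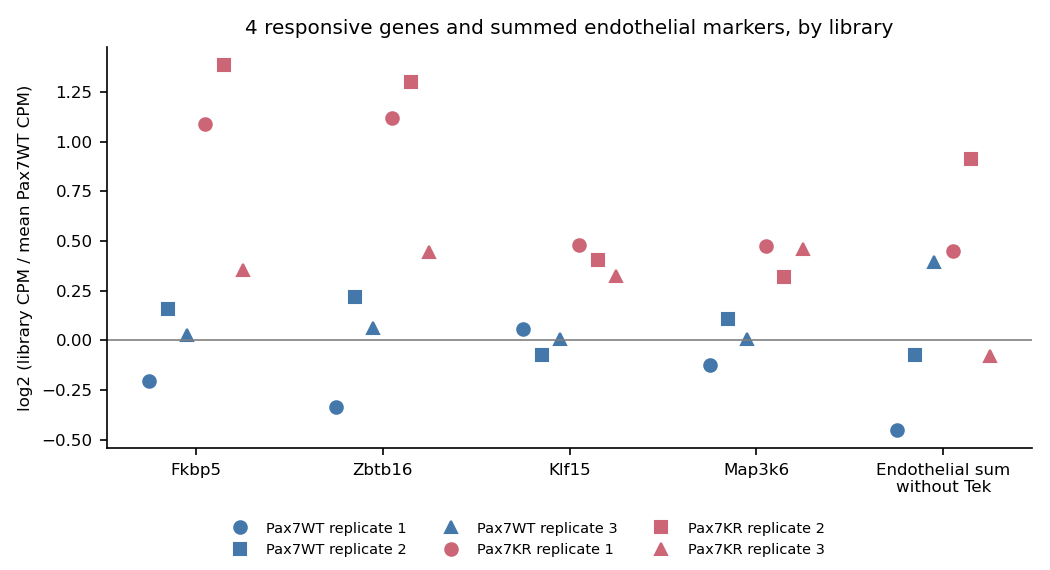
Level in each library as log2 of its ratio to the Pax7WT mean, for Fkbp5, Zbtb16, Klf15, Map3k6 and 15 summed endothelial markers, with 1 symbol per library and a grey line at the Pax7WT mean. Replicate 3 of Pax7KR (red triangle) lies well below the other Pax7KR libraries for Fkbp5, Zbtb16 and the endothelial sum, and close to them for Klf15 and Map3k6.

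Of the 6 genes selected by symbol, 0 passed an adjusted p of 0.1 in edgeR, 1 (Nr3c1) had an unadjusted p under 0.05, 3 were higher and 3 lower in Pax7KR, and their median log2FC was −0.04. Across all 17152 genes the median was −0.0037, edgeR passed 0 genes, 803 had an unadjusted p under 0.05, and DESeq2 passed 30. All 6 genes overlapped between the genotypes.

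Tsc22d3 encodes GILZ, the glucocorticoid-induced leucine zipper protein, which binds and restrains inflammatory transcription factors. It was at 205, 396 and 327 CPM in Pax7WT and at 291, 271 and 286 CPM in Pax7KR. The Pax7WT libraries spanned both ends of the range and the Pax7KR libraries lay between them. The log2FC of −0.13 (SE 0.26, adjusted p 0.998 in edgeR) turned to 0.088 without replicate 2 of Pax7WT, and it was −0.36 without replicate 1. The 5 genes nearest to Tsc22d3 in profile were Pts (0.060), Pus1 (0.111), Pycrl (0.116), Tcea2 (0.118) and Gm5859 (0.118), and no other member was among them.

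Sgk1 encodes a kinase of ion transport and cell survival that is induced by serum and by glucocorticoids. It was at 365, 295 and 415 CPM in Pax7WT and at 259, 228 and 337 CPM in Pax7KR. Replicate 3 was the highest of each genotype and replicate 2 the lowest, and only replicate 3 of Pax7KR reached into the range of Pax7WT. The log2FC was −0.38 (SE 0.20, adjusted p 0.99 in edgeR). It was −0.27 without replicate 2 of Pax7KR and −0.56 without replicate 3. Sgk1 thus lay on the side opposite to Fkbp5 and Zbtb16.

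Klf9, a Krüppel-like factor induced by glucocorticoids and thyroid hormone, was at 348, 433 and 469 CPM in Pax7WT and 465, 541 and 439 CPM in Pax7KR. Replicate 1 of Pax7WT was the lowest and replicate 2 of Pax7KR the highest, with the other 4 close together. For Klf9 the log2FC was 0.21 (SE 0.12, adjusted p 0.99 in edgeR), and it was 0.09 without replicate 1 of Pax7WT and 0.12 without replicate 2 of Pax7KR.

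Per1 encodes a repressor of the circadian clock whose transcription the receptor can induce directly. Its levels were 329, 312 and 444 CPM in Pax7WT and 363, 376 and 384 CPM in Pax7KR, so that replicate 3 of Pax7WT was highest. For Per1 the log2FC was 0.05 (SE 0.13, adjusted p 0.998 in edgeR), and without replicate 1 or replicate 2 of Pax7WT it was −0.017 or −0.048, and without replicate 3 it was 0.22.

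Cdkn1c encodes p57, an inhibitor of cyclin-dependent kinases that is imprinted and tied to cell cycle exit. It was at 22.2, 21.7 and 19.6 CPM in Pax7WT and 18.2, 29.3 and 25.1 CPM in Pax7KR. The Pax7KR libraries held both the lowest and the highest value. For Cdkn1c the log2FC was 0.19 (SE 0.15, adjusted p 0.998 in edgeR), and it was 0.03 without replicate 2 of Pax7KR and 0.36 without replicate 1.

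Transcripts of the 6 genes selected by symbol were then compared within their gene, as the share of the gene's estimated reads. Each library's reads are split by salmon between transcripts that share most of their sequence, so these shares are estimates. Of 28 transcripts of these genes, 3 had a share in every Pax7KR library above every Pax7WT library and 3 a share below. Over 48502 transcripts of all genes these were 5.02% and 4.62%. The transcripts named here were singled out after their values were seen. Of all 54853 transcripts tested with edgeR, 0% passed an adjusted p of 0.1 and 2197 had an unadjusted p under 0.05.

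Sgk1 was transcribed from both printed starts. Sgk1-201, which starts in the window without a half-site and held most of the gene's reads, was at 293, 223 and 314 CPM in Pax7WT and 186, 165 and 240 CPM in Pax7KR. Its log2FC was −0.49 (SE 0.18, unadjusted p 0.036, adjusted p 1.00 in edgeR). Sgk1-202, which starts in the window with the full palindrome, was at 45.8, 47.6 and 69.3 CPM in Pax7WT and 51.7, 42.7 and 73.0 CPM in Pax7KR. Its log2FC was 0.04 (SE 0.25, adjusted p 1.00 in edgeR), and it was −0.045 without replicate 2 of Pax7WT and 0.20 without replicate 2 of Pax7KR. As a share of the gene, Sgk1-202 made up 12.5%, 16.2% and 16.8% of reads in Pax7WT and 19.8%, 18.6% and 21.9% in Pax7KR, with no overlap. The difference between the log2FC values of both transcripts was not tested on its own.

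The long form of Tsc22d3, Tsc22d3-203, was a minor transcript that starts far upstream of the others. It held 35, 31 and 39 estimated reads in Pax7WT and 151, 131 and 68 in Pax7KR. These were 0.629%, 0.437% and 0.582% of the gene's reads in Pax7WT and 2.27%, 2.03% and 1.13% in Pax7KR, so the genotypes did not overlap and replicate 3 of Pax7KR was again the nearest to Pax7WT. Replicates 1 and 2 of Pax7KR, the highest here, also had the highest endothelial sum, whose part was not tested. The log2FC of Tsc22d3-203 was 1.64 (SE 0.37, unadjusted p 0.0040, adjusted p 1.00 in edgeR). Tsc22d3-201, the major short form, was at 169, 332 and 282 CPM in Pax7WT and 249, 237 and 247 CPM in Pax7KR, with a log2FC of −0.09 (SE 0.23), which turned to 0.12 without replicate 2 of Pax7WT. Tsc22d3-205, a transcript of the same region as the short form, is annotated as a retained intron. Its share went the other way, from 4.98% ± 1.13 in Pax7WT to 2.77% ± 1.17 in Pax7KR (SD, n = 3). Its level overlapped between the genotypes, at 8.67, 24.9 and 14.5 CPM in Pax7WT and 5.79, 6.05 and 11.6 CPM in Pax7KR.

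**Figure D3:**
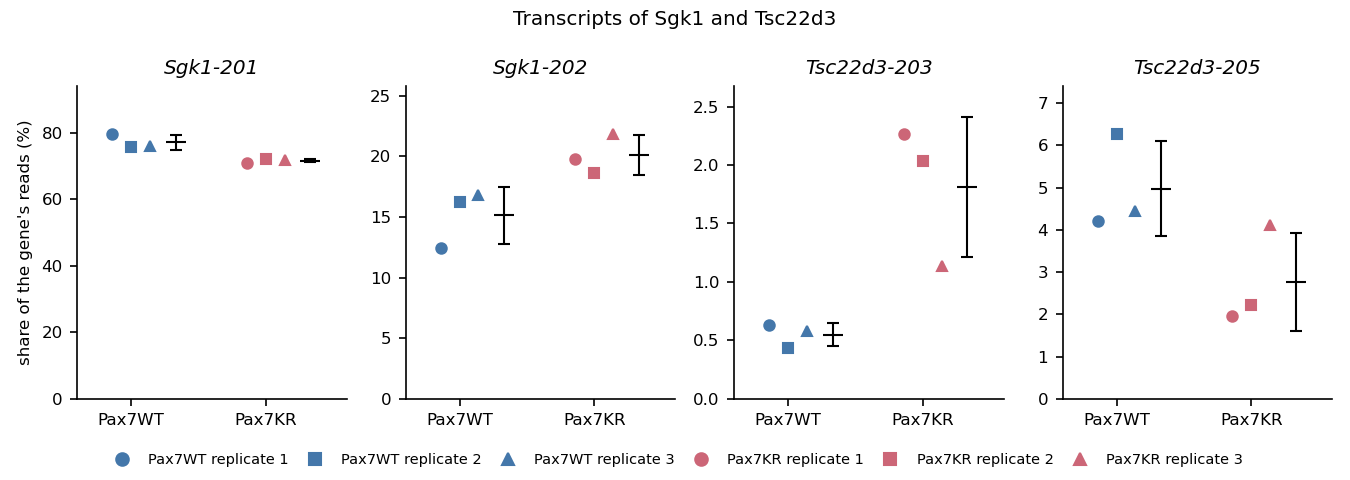
Share of the gene's estimated reads (percent, linear axes from 0) held by transcripts of Sgk1 and Tsc22d3 in each library, with the mean and SD of 3 libraries in black. The groups do not overlap in these 4 panels, with Sgk1-202 and Tsc22d3-203 higher and Sgk1-201 and Tsc22d3-205 lower in Pax7KR, and they were singled out for that.

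A wider list, chosen with earlier results of these data known, held 38 glucocorticoid-induced genes other than the members. Of 36 tested, 11 were higher and 25 lower in Pax7KR, and the median log2FC was −0.12. This balance depended on single libraries. Without replicate 1 of Pax7WT, 16 were higher and 19 lower, for a median of −0.04. Without replicate 1 of Pax7KR, 15 were higher and 21 lower, for a median of −0.03. Without replicate 2 of Pax7WT, 10 were higher and 26 lower, for a median of −0.15. In edgeR 0 of the 36 passed an adjusted p of 0.1, against 1 in DESeq2 (Foxo3, adjusted p 0.077). Without replicate 3 of Pax7KR edgeR passed 2, Foxo3 at 0.71 (adjusted p 0.011) and Lpin1 at −0.97 (adjusted p 0.068). An unadjusted p under 0.05 was reached by 1 higher gene and 2 lower genes. Foxo3, a forkhead factor of autophagy and atrophy programmes, was at 133, 137 and 159 CPM in Pax7WT and 233, 235 and 151 CPM in Pax7KR. Replicates 1 and 2 of Pax7KR were thus well above Pax7WT and replicate 3 was within its range, and the log2FC was 0.53 (SE 0.20, adjusted p 0.99 in edgeR). The same 2 libraries had the highest endothelial sum, whose part in Foxo3 was not tested. Angptl4, a secreted inhibitor of lipoprotein lipase, was at 22.2, 52.4 and 30.7 CPM in Pax7WT and 8.22, 16.5 and 13.9 CPM in Pax7KR. All Pax7KR libraries were below Pax7WT, and the log2FC was −1.44 (SE 0.46, adjusted p 0.99 in edgeR), or −1.04 without replicate 2 of Pax7WT. Lpin1, a phosphatidate phosphatase of lipid synthesis, was at 20.6, 26.3 and 19.4 CPM in Pax7WT and 12.1, 10.4 and 19.1 CPM in Pax7KR. Its log2FC was −0.67 (SE 0.24, adjusted p 0.99 in edgeR), and replicate 3 of Pax7KR was just under Pax7WT.

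**Figure D4:**
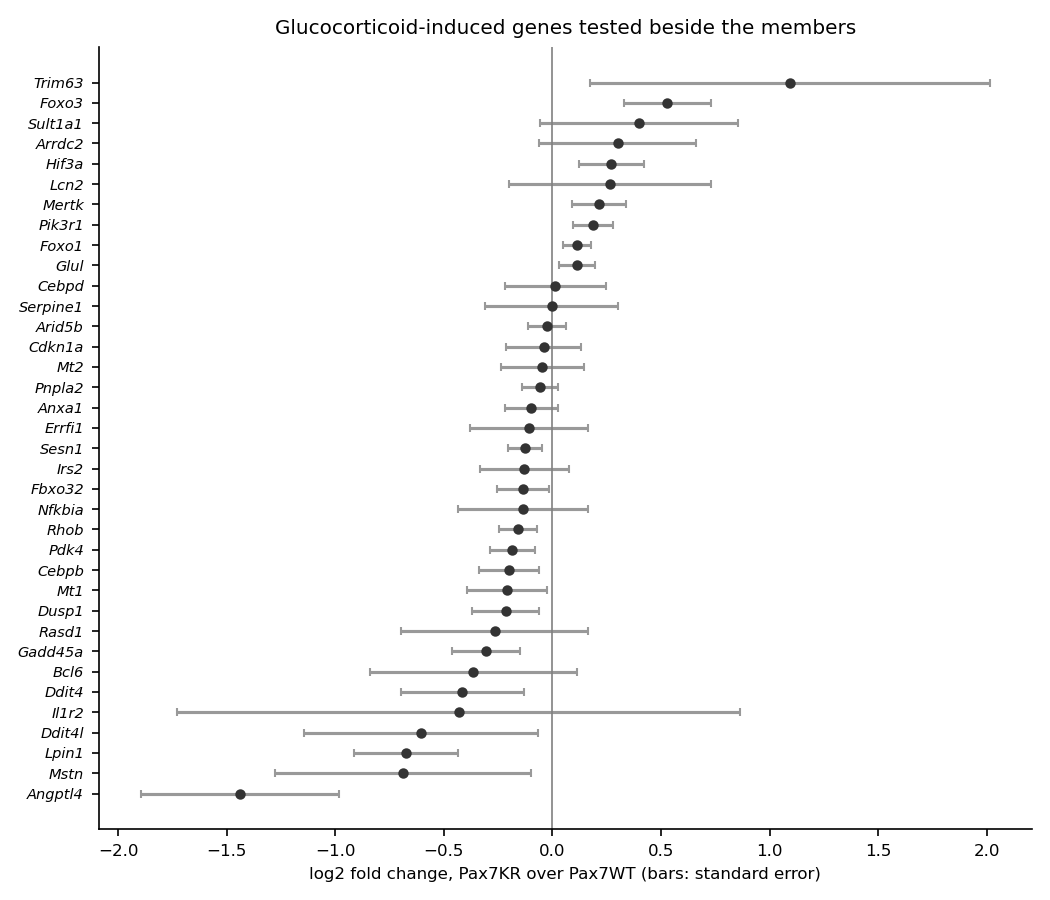
Log2 fold change (log2FC) of Pax7KR over Pax7WT for the 36 glucocorticoid-induced genes tested beside the members, ordered by value, with bars of 1 standard error. Of the points 25 lie below 0 and 11 above, and 0 passed an adjusted p of 0.1 in edgeR, against 1 (Foxo3) in DESeq2. With 1 library left out, 10 to 16 genes of the list were above 0.

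The receptor depends on chaperones that fold it, coregulators that it recruits and enzymes that set the hormone level in the cell. Of 15 genes of the chaperone cycle, 4 were higher and 11 lower, and the median log2FC was −0.08, but 7 were higher and 8 lower without replicate 2 of Pax7WT. The HSP90 genes that hold the receptor ready for hormone had values of −0.12 for Hsp90ab1 and −0.16 for Hsp90aa1. Of 15 coregulator genes, 8 were higher and 7 lower, for a median of 0.02. Ipo13, an importin of nuclear transport, had the smallest unadjusted p of these, 0.038, at a log2FC of 0.19. Of 6 tested genes of steroid access and related receptors, 4 were higher and 2 lower, with 2 higher and 4 lower without replicate 2 of Pax7KR. The mineralocorticoid receptor gene Nr3c2, which also binds glucocorticoids, had a value of −0.00093 and ranged from −0.12 to 0.14 with 1 library left out. In these 3 lists 0 genes passed an adjusted p of 0.1 in edgeR.

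Of 14 tested inflammatory genes that glucocorticoids repress, 8 were higher and 6 lower, and 12 had a mean under 5 CPM. Of 7 tested targets of KLF15, 4 were higher and 3 lower, and the median log2FC was 0.12. Without replicate 1 of Pax7WT, 3 were higher and 4 lower, and the median was −0.11. Of the 7, 4 had a mean under 5 CPM. Prodh, the first enzyme of proline breakdown, had a value of 0.17 (SE 0.08) and Bcat2, which transaminates branched-chain amino acids, 0.12 (SE 0.08). The lower targets were Fbxo32 at −0.14 (SE 0.12), Gpt at −0.15 (SE 0.27) and Slc2a4 at −0.15 (SE 0.30). Of 17 tested paralogues of the members, 8 were higher and 9 lower. Klf11 was at 58.0, 63.1 and 58.5 CPM in Pax7WT and 38.0, 53.6 and 41.8 CPM in Pax7KR, a log2FC of −0.43 (SE 0.11, adjusted p 0.99 in edgeR) opposite to Klf15 and Klf9. Without replicate 2 of Pax7KR it was −0.58 and passed the threshold (adjusted p 0.089). Per2, the partner of Per1 in the clock, was at 95.1, 82.1 and 88.3 CPM in Pax7WT and 105, 101 and 102 CPM in Pax7KR, a log2FC of 0.21 (SE 0.07, adjusted p 0.99 in edgeR). Of 18 clock genes, 8 were higher and 10 lower, for a median of −0.0056, with 16 higher and 2 lower without replicate 1 of Pax7WT. Of 23 immediate early and dissociation genes, 10 were higher and 13 lower, for a median of −0.02. Without replicate 2 of Pax7WT, the library with the lowest summed level of these genes, 0 were higher and 23 lower, with the median at −0.28, and Egr3, an immediate early zinc finger factor, passed the threshold at −1.13 (adjusted p 0.062). Without replicate 2 of Pax7KR, 3 were higher and 20 lower. With all 6 libraries 0 genes of these lists passed an adjusted p of 0.1 in edgeR. Klf13, a paralogue of Klf9, passed without replicate 3 of Pax7KR at 0.45 (adjusted p 0.068).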

How the data were processed

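RNA-sequencing of freshly isolated satellite cells was analysed for 3 Pax7WT and 3 Pax7KR libraries, grouped by the genotype in their labels. The authors quantified reads per transcript with Salmon (version 1.3.0) on GRCm38 and deposited estimated counts, not normalized, with TPM values. The authors' table of their own DESeq2 comparison, with fold changes and p-values, was not used. Estimated counts were summed per gene through an earlier GENCODE release and rounded, which matched 139791 of 140992 transcripts. Unmatched transcripts held 0.592% to 0.634% of reads. Genes that reached at least 5 reads in at least 2 libraries entered edgeR (version 4.0.16, R version 4.3.3), with TMM normalization, the quasi-likelihood test on genotype and Benjamini-Hochberg adjustment over 17152 genes, at a cut-off of 0.1. DESeq2 (version 1.42.0) was an alternative. The steps were tested on simulated data. Levels are CPM on TMM library sizes, and gene TPM values are sums of the deposited TPM. The members and lists were chosen with earlier results of these data known. Genes named from a list are those with the smallest unadjusted p in each direction, up to 3, and others named were chosen after their values were seen.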

Additional observations from a re-analysis of the deposited data

How the results depend on the processing

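The count of genes past the threshold, 0 in edgeR, was 30 with DESeq2, 45 with DESeq2 and the transcript length offset, 157 with no filter on low reads, and 1 to 32 when 1 library was left out, the 32 without replicate 3 of Pax7KR. The 6 members chosen by symbol had 0 past the threshold in every one of these settings and with other normalizations, a stricter filter, the length offset in edgeR and reads not rounded. Of the glucocorticoid-induced list, 0 in edgeR became 1 with DESeq2 (Foxo3, adjusted p 0.077), 2 with no filter (Lpin1, adjusted p 0.00022, and Gadd45a, 0.068) and 0 to 2 with 1 library left out, the 2 being Foxo3 (adjusted p 0.011) and Lpin1 (0.068) without replicate 3 of Pax7KR. The cause was not tested. Of 150 log2 fold changes of the members, over 15 alternatives each, 145 kept their direction and their side of the threshold or, for the 4 chosen genes, stayed within 1 SD. The sign turned in 3: Tsc22d3 ranged from −0.36 to 0.088 with 1 library left out, at 0.088 without replicate 2 of Pax7WT, and Per1 from −0.048 to 0.22, at −0.017 without replicate 1 and −0.048 without replicate 2 of Pax7WT. The length offset moved Map3k6 from 0.42 to 0.53 in both edgeR and DESeq2. Fkbp5 moved from 1.01 to 1.21 in edgeR and 1.20 in DESeq2 with this offset, within 1 SD for that gene. With 1 library left out, Sgk1-202 ranged from −0.20 to 0.25, Tsc22d3-201 from −0.33 to 0.12 and Nr3c2 from −0.12 to 0.14. With 1 library left out, 0 to 17 of the 23 immediate early genes and 7 to 16 of the 18 clock genes were higher. The comparison of transcripts and leaving out 1 library for transcripts, for genes named from a list and for list counts were added after seeing the data.

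With the replicate number as a replicate block, 13 genes passed the threshold, of which 1 (Angptl4, adjusted p 0.0022) was in the glucocorticoid-induced list and 0 were members chosen by symbol. Deviations from the genotype means had correlations of −0.00031, 0.10 and 0.035 for libraries of the same number. For libraries of different numbers they ranged from −0.11 to 0.092. These values rest on means of 3 libraries, so they cannot decide whether the numbers pair the samples.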
